A study of Homo sapiens with 6 samples.

Results

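The 10 ligands through which tumour cells meet T cells, natural killer (NK) cells and macrophages were followed in SW480 cells with and without added *MDM4*. They are the checkpoint ligands *CD274*, *CD276*, *PVR*, *LGALS9* and *CD47*, and the NKG2D ligands *MICA*, *MICB*, *ULBP1*, *ULBP2* and *ULBP3*. They were chosen by name, as the rows of the expression table that carry these symbols. All 10 were among the 19225 symbols listed, and all 10 reached the mean of 0.5 FPKM that a gene needed to be tested.

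SW480 is an established colon adenocarcinoma line, and the labels give the genotype of every library as mutant p53. The cells were transiently transfected with plasmid. One group of 3 libraries is labelled as control and the other, which the titles call exercised, carried plasmids encoding *MDM4*, a negative regulator of p53. The labels do not say which plasmid the control cells received, nor how long after transfection RNA was taken. Messenger RNA was sequenced, and expression was given as FPKM, fragments per kilobase of gene scaled to the mapped total, a unit that corrects for gene length and for the size of the library. Since the transfection was transient, each library mixes cells that took up the plasmid with cells that did not, and a lower level in fewer cells cannot be told apart from less RNA per cell. Nothing states that the libraries came from separate cultures, so the p-values measure the spread between these libraries, which may be technical.

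Checkpoint ligands bind inhibitory receptors on immune cells. CD274 (PD-L1) engages PD-1 on T cells, CD276 (B7-H3) is a relative of PD-L1, PVR (CD155) binds TIGIT and CD96 as well as the activating receptor CD226, galectin-9, the product of *LGALS9*, binds TIM-3, and CD47 engages SIRP-alpha on macrophages and so restrains phagocytosis. The NKG2D ligands do the opposite: MICA, MICB and the ULBP proteins are MHC class I-like molecules that appear on stressed or transformed cells and activate the NKG2D receptor of NK cells and cytotoxic T cells.

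The libraries held 33044788 to 44729596 reads. The transfected gene measured 6.35, 7.09 and 5.13 FPKM across control replicates 1 to 3, against 188, 185 and 56.3 FPKM across those with *MDM4* plasmid, and the nearest libraries of the groups were 7.94-fold apart. Replicate 3 stood apart in both groups: its control and *MDM4* libraries correlated with each other at 0.994 over the tested genes and with the other libraries at 0.977 to 0.98, while the remaining libraries correlated with one another at 0.99 to 0.995. Of 13 epithelial and intestinal markers 8 were tested. *KRT8* lay between 1550 and 1876 FPKM, and of the intestinal markers *CDX2* lay between 9.99 and 14.2, *ASCL2* between 5.97 and 13.1 and *VIL1* between 1.88 and 4.08 FPKM, whereas *CDX1*, *CEACAM5* and *LGR5* had at most 8 reads in any library. Of these 8, 7 were lower and 1 higher with *MDM4* (median log2 fold change -0.10), and 0 were called. The groups lay apart downwards for 2, *CDX2* and *EPCAM*, and upwards for 1, *CDH1*. Over all tested genes the groups lay apart downwards for 3.76% and upwards for 3.1%. The part of these markers in the ligand values was not tested. Of 21 immune cell genes 7 were tested; their summed level was 18.2 to 23.3 FPKM in control and 16.7 to 22.7 FPKM in *MDM4* libraries, *KLRK1*, which encodes NKG2D, *KLRD1* and *MS4A1* were at 0 in every library, and *PTPRC* (CD45) had at most 2 reads. The tested ones were *NCAM1*, a neural and NK cell adhesion gene, at 6.39 to 9.37 FPKM, *CD68* at 4.26 to 5.01, *HCST* at 1.82 to 3.24, *CD4* at 0.595 to 1.2, *PDCD1* at 0.312 to 1.22, *CD8A* and *CD14*. Of 10 stromal markers 2 were tested, *ACTA2* and *COL1A1*, with a summed list level of 4.97 to 7.9 FPKM in control and 5.46 to 8.93 FPKM in *MDM4* libraries. The part of these genes in the ligand values was not tested.

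Promoter sequence is shown for 4 of the 10 genes, since their expression is set side by side later on: *LGALS9*, the ligand that moved with the interferon-stimulated genes, *CD274*, which carries interferon-type motifs, and the neighbouring pair *MICA* and *MICB*. Each is the 250 bases before the RefSeq start on GRCh38.p14, plus strand of the chromosome and of the gene. Capitals mark matches, on either strand, to GAAANNGAA (the core of the interferon-stimulated response element), TTCNNNGAA (the gamma-activated site) or GAANNTTC (heat shock element).
LGALS9, chr17:27630938-27631187: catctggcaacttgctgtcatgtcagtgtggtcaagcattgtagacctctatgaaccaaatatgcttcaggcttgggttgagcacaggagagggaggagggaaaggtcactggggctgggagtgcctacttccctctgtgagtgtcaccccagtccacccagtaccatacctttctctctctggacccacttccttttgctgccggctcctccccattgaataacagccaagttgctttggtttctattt
CD274, chr9:5450292-5450541: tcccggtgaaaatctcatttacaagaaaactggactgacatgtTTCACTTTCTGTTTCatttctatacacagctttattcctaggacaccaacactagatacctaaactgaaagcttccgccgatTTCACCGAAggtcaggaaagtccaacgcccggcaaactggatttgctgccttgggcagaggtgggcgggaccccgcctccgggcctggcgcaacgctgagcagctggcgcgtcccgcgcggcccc
MICA, chr6:31403345-31403594: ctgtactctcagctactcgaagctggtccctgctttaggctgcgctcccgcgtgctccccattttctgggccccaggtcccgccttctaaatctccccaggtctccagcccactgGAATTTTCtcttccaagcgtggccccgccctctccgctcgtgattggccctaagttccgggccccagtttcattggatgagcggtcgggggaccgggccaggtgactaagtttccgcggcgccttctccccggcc
MICB, chr6:31497895-31498144: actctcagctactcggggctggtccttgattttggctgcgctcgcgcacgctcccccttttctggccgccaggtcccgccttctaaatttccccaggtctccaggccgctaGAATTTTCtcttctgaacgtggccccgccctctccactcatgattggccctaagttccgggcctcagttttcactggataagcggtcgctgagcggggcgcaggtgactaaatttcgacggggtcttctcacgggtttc

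In the *CD274* promoter the response-element core matched at 2 overlapping places on the opposite strand, 207 to 199 and 201 to 193 bases before the start, and the gamma-activated site at 125 to 117 bases. GAAANNGAA was in 6.88% and TTCNNNGAA in 6.57% of 35116 promoters of the same length, and *CD274* was the only member of the 10 with either. GAANNTTC, found in 5.78% of promoters, was in *MICA* and *MICB* alone among the members, 135 to 128 and 139 to 132 bases before their starts. The GC box GGGCGG was in 8 members against 42.6% of promoters and CCAAT in 4 against 32%, both in *MICA* and *MICB* and neither in *LGALS9*. The *LGALS9* window held none of the 5 motifs searched, which says only that these letters are not in these 250 bases. The *LGALS9*, *MICA* and *MICB* windows lie inside the annotated spans of their genes, and sequence before those spans was not searched.

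The ligands covered a wide range of levels, and the order of their group means was the same in control and *MDM4* libraries except that *LGALS9* and *ULBP1* changed places. Averaged over the 6 libraries, *PVR* was the most abundant at 37.1 FPKM, above 88.6% of all listed genes, followed by *CD276* at 28.0 FPKM. *PVR* was above *CD276* in 4 of 6 libraries and below it in both replicate 3 libraries. *MICA* at 13.1, *MICB* at 12.5 and *CD47* at 11.2 FPKM formed a middle tier. *ULBP3* came next at 7.58 FPKM and *ULBP2* at 6.05 FPKM, and the lowest were *ULBP1* at 2.17, *LGALS9* at 1.78 and *CD274* at 1.03 FPKM, the last above 37.6% of listed genes. The ranges over libraries did not overlap between the neighbours *CD276* and *MICA*, between *CD47* and *ULBP3* or between *ULBP2* and *ULBP1*. The other neighbours overlapped, although *ULBP3* was above *ULBP2* in 6 of 6 libraries. PD-L1 transcript was therefore scarce here: *CD274* rested on 69 to 135 reads a library and *LGALS9* on 45 to 216, against 4096 to 9045 for *PVR*.

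**Figure D1:**
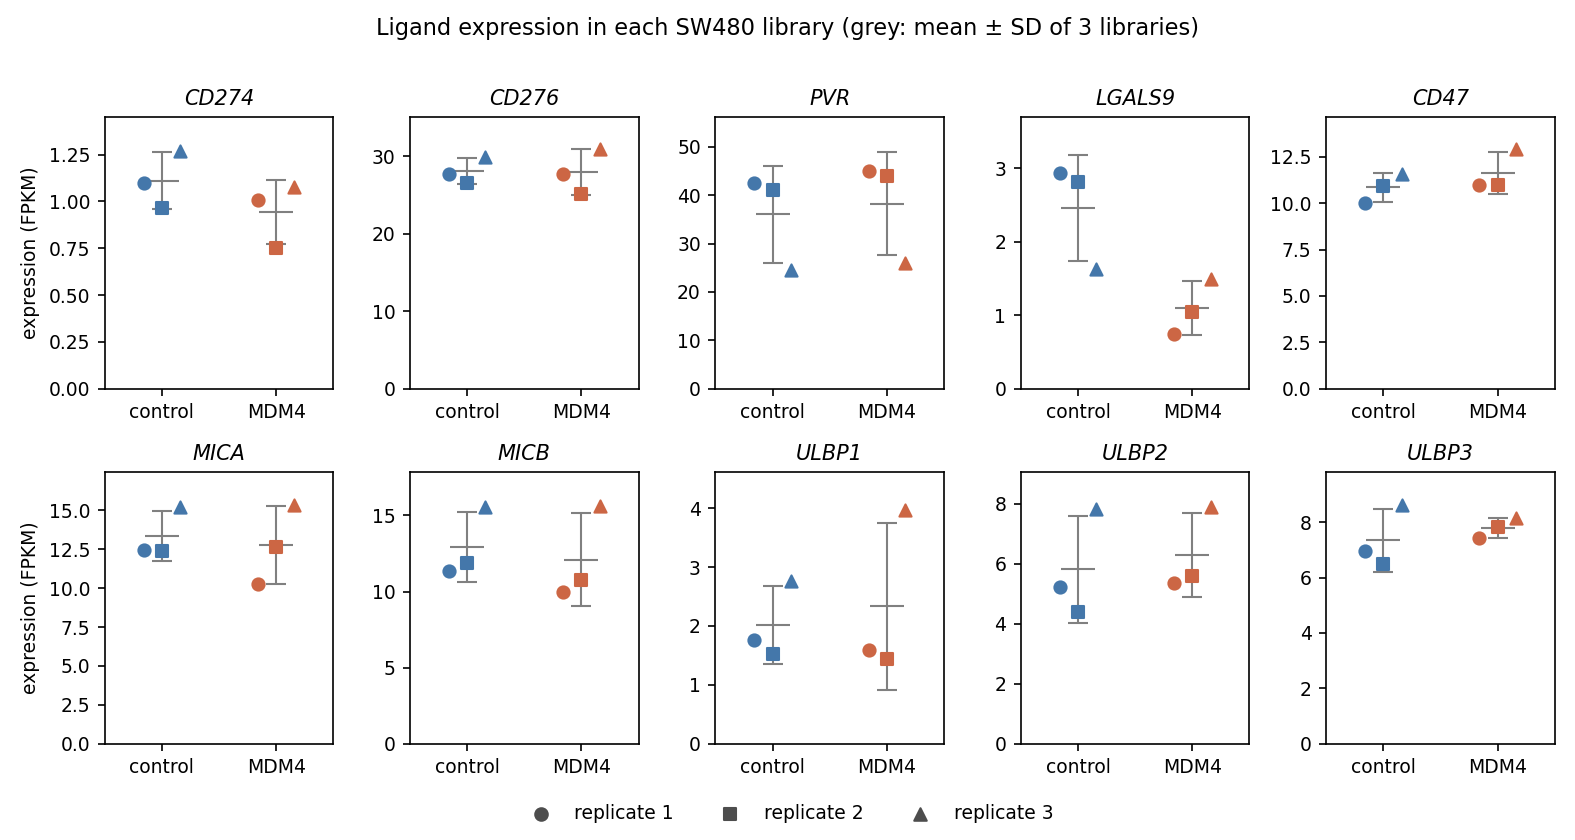
Expression in FPKM (vertical axis, from 0, a separate scale for each gene) of the 10 ligands in the 3 control and 3 MDM4 libraries; symbols give the replicate number and grey bars the mean and SD of each group. Only for LGALS9 do the groups lie apart, and in most panels the triangles of replicate 3 lie away from replicates 1 and 2 in both groups.

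Added *MDM4* was compared with control to ask whether it alters the transcript levels of these ligands. Ligand protein at the cell surface was not measured, so the values do not give what the cells show to immune cells. *LGALS9* was the one ligand whose libraries separated by group. The other 9 lay within 0.25 of 0 on the log2 scale, as did 91.3% of all tested genes. By limma on log2(FPKM + 0.1) with Benjamini-Hochberg adjustment over 12884 genes, 0 of the 10 ligands and 0% of all tested genes were called at an adjusted p under 0.05 and a change of over 1 on the log2 scale. At an unadjusted p under 0.05 there were 222 genes (1.72%), 1 of them a ligand, *LGALS9*. limma-voom on the recovered reads also called 0 genes. The transfected gene itself had a log2 fold change of 4.33 (SE 0.43) with an adjusted p of 0.161 in this fit, and of 4.77e-05 with the replicate numbers as a block, in which 2 genes (0.0155%) and 0 ligands were called. The median log2 fold change was 0.04 over the ligands, of which 5 were higher and 5 lower, and -0.01 over all tested genes.

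*LGALS9* encodes galectin-9, a sugar-binding protein that is known to be inducible by interferon. It lies at chr17:27629798-27649560 (GRCh38, plus strand). Its level was 2.93, 2.81 and 1.63 FPKM in control replicates 1 to 3, on 216, 165 and 108 reads, and 0.751, 1.05 and 1.49 FPKM in *MDM4* replicates 1 to 3, on 45, 60 and 81 reads. Every *MDM4* library was below every control library, which held for 3.76% of all tested genes; 6.85% had groups apart in either direction. The lowest control library and the highest *MDM4* library were both replicate 3 and lay close to each other. The group means were 2.46 ± 0.72 and 1.10 ± 0.371 FPKM (SD, n = 3), with a log2 fold change of -1.10 (SE 0.31, 95% interval -1.83 to -0.37). Its unadjusted p in limma was 0.00852, rank 23 among 12884 genes, and its adjusted p was 0.9999. The exact two-sided permutation test gave 0.1, the smallest p that 3 against 3 allows.

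The size of that difference followed the replicate number. In replicate 1 the control library was 3.91-fold above the *MDM4* library (exact binomial 95% interval of the reads 2.82 to 5.51), in replicate 2 it was 2.68-fold above (1.98 to 3.66), and in replicate 3 the fold was 1.10 (0.813 to 1.48). These intervals cover counting error only. Within replicates 1 and 2 alone, 2 libraries a group, *LGALS9* was lower with *MDM4* by limma, with a log2 fold change of -1.59 (SE 0.20) and an adjusted p of 0.00194. Replicate 3 was known from earlier results to stand apart, and leaving it out drops the pair with the smallest *LGALS9* difference. This fit is therefore no independent support for a change. In that fit 37 of 12746 genes were called (0.29%), 36 of them lower (0.282%), and *LGALS9* was the 1 ligand called in either direction. Across all 6 libraries its adjusted p was 0.249 with the replicate block and 0.109 with limma-voom and the block, a fit that called 15 genes (0.116%) and 0 ligands. A test of whether the *MDM4* effect differed in replicate 3 gave a difference of 1.46 on the log2 scale (SE 0.35) with an adjusted p of 0.367, its error taken from replicates 1 and 2 since replicate 3 has 1 library a group. That test called 25 genes (0.194%) and 0 ligands, and at an unadjusted p under 0.05 it gave 293 genes (2.27%), with *LGALS9* as the 1 ligand among them.

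The interferon-stimulated genes had the same split by replicate number: 24 of the 24 tested were lower with *MDM4* in replicate 1 and in replicate 2, and 10 in replicate 3. All 24, of a list of 26, were lower on average with *MDM4*, with a median log2 fold change of -1.13, although 0 of them were called over the 6 libraries and 20 passed an unadjusted p of 0.05. The list was chosen with earlier results of these data known. It holds genes that the paper picked from its sequencing and reports as lower with *MDM4*, *IFI27* among them. For these genes the paper also reports lower levels by qPCR, in SW480 and in another colon cancer line, which were not examined here. How many of the list were lower or called is therefore no independent support. By replicate number the list's median difference was -1.64, -1.66 and 0.02, and the difference of *LGALS9* was -1.83, -1.34 and -0.12. In replicates 1 and 2 alone 19 of the 24 were called, and with limma-voom and the block over 6 libraries 8 were. *IFI27*, whose product is a mitochondrial protein strongly induced by interferon, stood at 54.6, 53.5 and 12.9 FPKM in control and at 10.3, 7.42 and 9.61 FPKM in *MDM4* replicates 1 to 3. *ISG15*, a ubiquitin-like modifier and the most abundant of the list, stood at 232, 240 and 92.7 FPKM in control and at 89.8, 95.7 and 86.1 FPKM in *MDM4* replicates. In both genes, as in *LGALS9*, the replicates 1 and 2 of control were the high libraries. Control replicate 3 of *IFI27* and *ISG15* lay near the *MDM4* libraries. In *LGALS9* it lay near *MDM4* replicate 3 only, at 1.63 against 1.49 FPKM, with *MDM4* replicates 1 and 2 lower at 0.751 and 1.05 FPKM. Among all tested genes outside the 10, *USP18*, which removes ISG15 from proteins, was the one most like *LGALS9* over the 6 libraries (Pearson's r of log2 values 0.994), followed by the homeobox gene *HOXD13* (0.993) and *EPSTI1* (0.989), itself known to be induced by interferon. These correlations rest on 6 libraries that share the replicate structure just described.

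**Figure D2:**
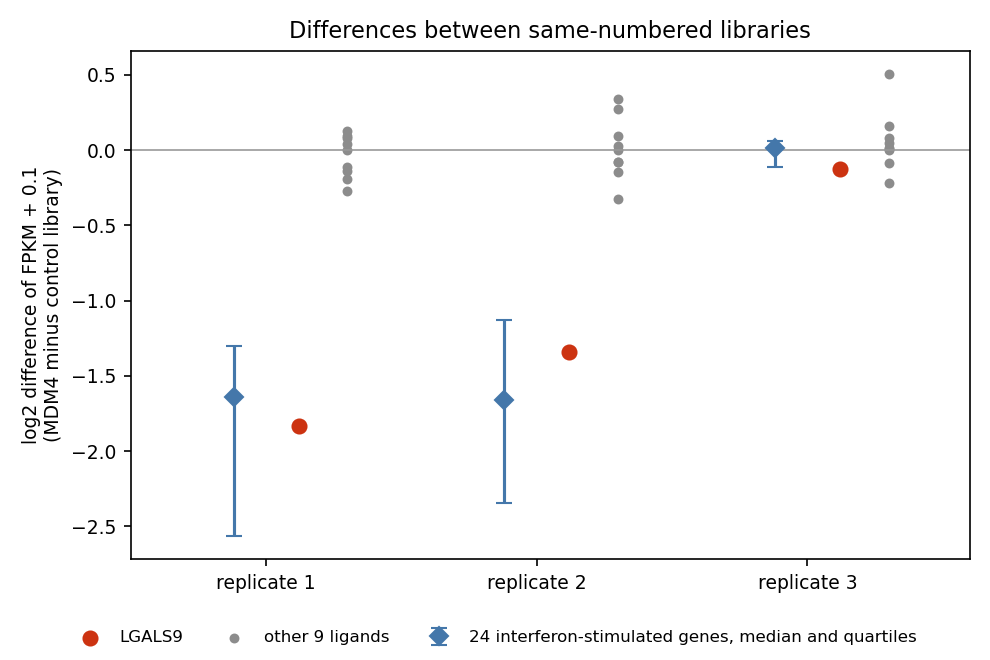
Difference in log2(FPKM + 0.1) between the MDM4 and the control library of the same number (vertical axis) for LGALS9 (red), the other 9 ligands (grey) and 24 interferon-stimulated genes (blue, median and quartiles). LGALS9 and the median of the interferon list are both at or below -1.34 in replicates 1 and 2 and between -0.12 and 0.02 in replicate 3, while the other ligands lie between -0.32 and 0.51.

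*CD274*, the PD-L1 gene (chr9:5450503-5470566, plus strand), did not follow *LGALS9*. Its level was 1.10, 0.965 and 1.27 FPKM in control and 1.01, 0.751 and 1.08 FPKM in *MDM4* replicates 1 to 3. Each *MDM4* library was below the control library of the same number, but the groups overlapped. The log2 fold change was -0.22 (SE 0.23, 95% interval -0.75 to 0.31, limma adjusted p 0.9999), and in replicates 1 and 2 alone it was again -0.22. The control over *MDM4* folds by number were 1.09 (exact binomial 95% interval 0.832 to 1.43), 1.28 (0.929 to 1.78) and 1.18 (0.9 to 1.55), each within counting error of no change. The genes most like it over the 6 libraries were *CD14* (r 0.988), the scaffold gene *PDZD4* (0.983) and the heat shock gene *HSPA1A* (0.981), with *CD14* at 52 reads at most.

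*CD276*, *PVR* and *CD47* overlapped between the groups and were not called. *CD276* stood at 27.7, 26.5 and 29.9 FPKM in control and at 27.7, 25.1 and 31.0 FPKM in *MDM4* replicates, with a log2 fold change of -0.01 (SE 0.10, 95% interval -0.24 to 0.22). Of the 10 it had the narrowest interval. *CD47* stood at 10.02, 10.9 and 11.6 FPKM in control and at 10.97, 10.96 and 12.9 FPKM in *MDM4* replicates, with a log2 fold change of 0.10 (SE 0.11, 95% interval -0.17 to 0.36). In both genes the highest library was *MDM4* replicate 3. *PVR* stood at 42.4, 41.1 and 24.6 FPKM in control and at 44.9, 43.9 and 26.01 FPKM in *MDM4* replicates. Each *MDM4* library of *PVR* was slightly above the control library of its number, by 0.08 to 0.09 on the log2 scale, and the low library in each group was replicate 3. Without the block its interval ran from -0.54 to 0.71, and with it from -0.04 to 0.21, around a log2 fold change of 0.09 (block adjusted p 0.526, limma).

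The MIC genes are the NKG2D ligands encoded within the major histocompatibility complex, *MICA* at chr6:31399784-31415315 and *MICB* at chr6:31494881-31511124, both on the plus strand. *MICA* stood at 12.5, 12.4 and 15.2 FPKM in control and at 10.3, 12.7 and 15.3 FPKM in *MDM4* replicates, with a log2 fold change of -0.08 (SE 0.16, 95% interval -0.45 to 0.30). *MICB* stood at 11.3, 11.9 and 15.6 FPKM in control and at 9.94, 10.7 and 15.6 FPKM in *MDM4* replicates, with a log2 fold change of -0.11 (SE 0.20, 95% interval -0.57 to 0.35). In both genes replicate 3 was the high library of each group, at nearly the same level with and without *MDM4*, and the lowest library was *MDM4* replicate 1.

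The ULBP genes lie together on the long arm of chromosome 6 and most of their proteins are held in the membrane by a lipid anchor. *ULBP1* stood at 1.75, 1.52 and 2.76 FPKM in control and at 1.59, 1.44 and 3.96 FPKM in *MDM4* replicates. Its *MDM4* libraries were below control in replicates 1 and 2 and above it in replicate 3, where the control over *MDM4* fold was 0.696 (exact binomial 95% interval 0.598 to 0.81). The log2 fold change of *ULBP1* was 0.10, with the widest interval of the 10 (-0.83 to 1.03), and the difference of its effect in replicate 3 was 0.61 (SE 0.30, limma adjusted p 0.9998). *ULBP2* stood at 5.21, 4.39 and 7.82 FPKM in control and at 5.37, 5.59 and 7.89 FPKM in *MDM4* replicates, with a log2 fold change of 0.13 (SE 0.24, 95% interval -0.43 to 0.69). *ULBP3* stood at 6.95, 6.48 and 8.64 FPKM in control and at 7.42, 7.84 and 8.14 FPKM in *MDM4* replicates, with a log2 fold change of 0.09 (SE 0.14, 95% interval -0.22 to 0.41). *ULBP2* was higher with *MDM4* in each same-numbered pair, and *ULBP3* in the pairs of replicates 1 and 2, without the groups parting. For these ligands the intervals leave room for changes of either sign.

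**Figure D3:**
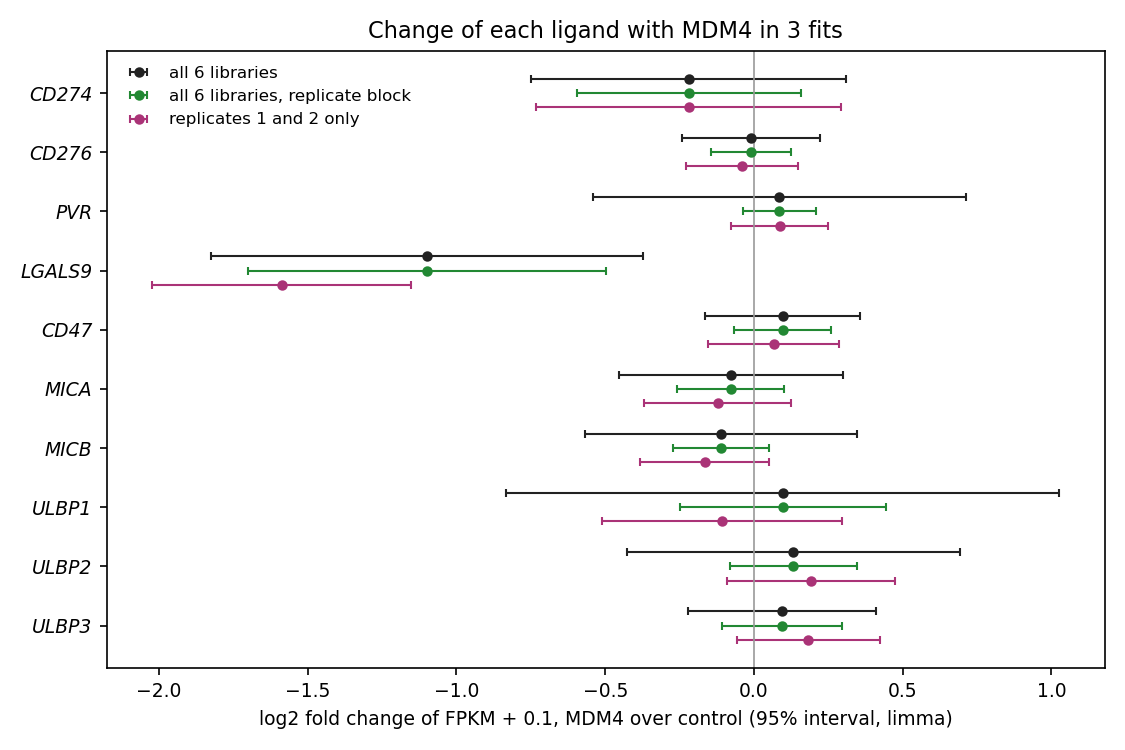
Log2 fold change of FPKM + 0.1 with MDM4 over control (horizontal axis) for each ligand, with 95% intervals from limma in 3 fits. The LGALS9 intervals lie below 0 in each fit and those of the other 9 ligands span 0.

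A contrast that took in more of the ligands lay between replicate 3 and replicates 1 and 2, in both groups. It was looked at after the values had been seen, with group and replicate 3 as terms of 1 limma fit. *PVR* was lower and 4 of the 5 NKG2D ligands, all but *ULBP3*, were higher in replicate 3 by this test. For 8 of the 10 ligands both replicate 3 libraries lay outside all 4 libraries of replicates 1 and 2, 7 above and *PVR* below, against 55.7% of all tested genes, 37.3% above and 18.4% below. At an adjusted p under 0.05 the term was called for 6 of the 10, 5 higher and 1 lower, against 44.1% of all tested genes, 29.6% higher and 14.6% lower, so the ligands' share was not far from that of the genes at large in this fit. The number of genes called rested on both replicate 3 libraries: it was 5685 with all 6, 2846 without the control and 2414 without the *MDM4* library of replicate 3, with 5 ligands called in each of the last 2 fits. Of all called terms 67% were higher with FPKM as deposited and 51.1% after quantile normalization, which moved the median term of all genes from 0.09 to 0.02.

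*PVR* averaged 43.1 ± 1.65 FPKM (SD, n = 4) in replicates 1 and 2 and 25.3 FPKM in replicate 3, a log2 term of -0.77 (SE 0.06, limma adjusted p 1.05e-05), and 1.4% of tested genes had a lower term. *ULBP1*, at 1.57 ± 0.134 FPKM (SD, n = 4) and 3.36 FPKM, had the largest term upwards, 1.03 (SE 0.16, adjusted p 0.000683 by limma), exceeded by 1.86% of tested genes. The terms of *ULBP2* and *MICB* were 0.61 and 0.51, with adjusted p of 0.000857 and 0.000522, and that of *MICA* was 0.36 with 0.00881. *CD276* had a term of 0.19 with an adjusted p of 0.0402, which became 0.0523 after quantile normalization, where 5 ligands and 40.6% of tested genes were called. *CD47* at 0.19 (adjusted p 0.0636), *ULBP3* at 0.23 (0.0658), *CD274* at 0.28 (0.25) and *LGALS9* at -0.05 (0.904) were not called. After quantile normalization the term of *CD274* was -0.0445 and that of *LGALS9* -0.37 (adjusted p 0.862 and 0.287, limma). With the same normalization the terms of *ULBP1*, *ULBP2*, *MICB*, *MICA* and *ULBP3* were smaller, at 0.76, 0.46, 0.45, 0.30 and 0.09. That of *PVR* stayed at -0.77. limma-voom on the recovered reads called *CD47* as well, at an adjusted p of 0.0356, which made 7 ligands against 45.6% of tested genes. The *LGALS9* term averages a difference of -0.78 within control and 0.68 within *MDM4* libraries.

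Summed over the 5 NKG2D ligands, the level was 37.7, 36.7 and 50.05 FPKM in control and 34.6, 38.3 and 50.9 FPKM in *MDM4* replicates 1 to 3. The ratio of that sum to *PVR* was 0.888, 0.892 and 2.04 in control and 0.771, 0.873 and 1.96 in *MDM4* replicates. The balance of NKG2D ligand to *PVR* transcript thus differed more between replicate numbers than between groups. The sum over all 10 ligands was 119 to 122 FPKM in control and 119.9 to 123.4 FPKM in *MDM4* libraries, with *PVR* lower and the NKG2D ligands, *CD276* and *CD47* higher in both replicate 3 libraries than in replicates 1 and 2. The labels do not say what set replicate 3 apart, and the replicate 3 difference rests on 1 library a group.

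The genes whose pattern was most like a ligand's mostly shared its replicate 3 shift. They were picked by r over the same 6 libraries, replicate 3 included, so a shared shift is largely built into the choice. For *PVR* they were *SKI*, a repressor of TGF-beta signalling, *FEM1A* and *ADGRF1* (r 0.999 each, n = 6 libraries), with replicate 3 terms of -0.31, -0.77 and -0.69. For *ULBP2* the nearest was *GDF15*, a stress-induced cytokine of the TGF-beta superfamily, at a mean of 112 FPKM (r 0.999, replicate 3 term 0.75). For *MICB* the nearest was the chondroitin sulfotransferase gene *CHST11* (r 0.998, term 0.56), for *ULBP1* *PDE4DIP* (0.999, 0.39), for *CD47* the phosphate exporter gene *XPR1* (0.998, 0.34) and for *CD276* *STPG1* (0.998, 0.69). For *MICA* it was *GAL3ST4* (0.997, term 0.94) and for *ULBP3* the histone gene *HIST1H3H* (0.993, 0.49).

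Of 23 further checkpoint ligands listed, 16 were tested, and 13 were lower and 3 higher with *MDM4*, with a median log2 fold change of -0.10 and 0 called. *PDCD1LG2*, which encodes PD-L2, had at most 3 reads and the CTLA-4 ligands *CD80* and *CD86* at most 1 and 2 reads in any library. *SIRPA*, the CD47 receptor, stood at 9.81, 8.74 and 9.12 FPKM in control and at 8.10, 7.39 and 8.48 FPKM in *MDM4* replicates, without overlap of the groups, with a log2 fold change of -0.21 (SE 0.11, limma adjusted p 0.9999). *NECTIN2*, a relative of PVR that also binds TIGIT, CD226 and PVRIG, lay between 38.9 and 47.8 FPKM, with a log2 fold change of -0.13. *LGALS3* and *TNFRSF14* had log2 fold changes of -0.16 and -0.38. *LGALS1*, a galectin made by many tumours and the most abundant of the list, lay between 543 and 639 FPKM, with a log2 fold change of -0.07. None of these was called.

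Of 11 further NK cell ligands 9 were tested, 4 higher and 5 lower, with a median of -0.03 and 0 called. *HLA-E*, the ligand of the inhibitory NKG2A receptor, lay between 56.3 and 67.4 FPKM (log2 fold change -0.14). *ICAM1*, an adhesion molecule that NK cells bind through LFA-1, stood at 110, 106 and 82.1 FPKM in control and at 89.2, 87.6 and 82.0 FPKM in *MDM4* replicates (log2 fold change -0.19, SE 0.11, limma adjusted p 0.9999). As in *LGALS9*, control replicates 1 and 2 were its high libraries. Unlike in *LGALS9*, its *MDM4* replicates 1 and 2 lay above both replicate 3 libraries (replicate 3 term -0.25, limma adjusted p 0.00994). *HLA-G* had at most 4 reads. The further NKG2D ligands *RAET1E*, *RAET1G* and *RAET1L* lay between 1.07 and 4.41 FPKM.

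Of 19 genes that act on PD-L1 or CD47, 10 were higher and 9 lower with *MDM4*, with a median of 0.01 and 0 called. *IFNGR2*, a chain of the interferon-gamma receptor, was lower in every *MDM4* library (log2 fold change -0.21) and *CMTM4*, which protects PD-L1 from degradation, was higher in every one (0.22), both with an adjusted p of 0.9999. *IRF1*, which drives *CD274* transcription, had a log2 fold change of -0.19. *MYC*, the most abundant of the list, stood at 212, 195 and 117 FPKM in control and at 205, 213 and 113 FPKM in *MDM4* replicates, so that, like *PVR*, it was low in replicate 3 of both groups (term -0.84, adjusted p 4.83e-06).

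Of 15 genes that shed NKG2D ligands or act on their expression, 8 were higher and 7 lower, with a median of 0.02 and 0 called. *ADAM10*, a protease that releases MICA, MICB and ULBP2 from the cell surface, stood at 26.8, 31.4 and 29.9 FPKM in control and at 33.5, 34.3 and 34.5 FPKM in *MDM4* replicates. Its *MDM4* libraries were all above control, which held for 3.1% of all tested genes, with a log2 fold change of 0.22 (SE 0.08, limma adjusted p 0.9999). *DICER1*, *MMP14* and *HSPA1A* had log2 fold changes of 0.21, -0.12 and -0.13. *ATF4*, a factor of the integrated stress response known to drive *ULBP1*, was the most abundant at 171 to 194 FPKM, with a log2 fold change of 0.02.

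Reads may be shared among relatives of some ligands. In the GENCODE transcripts of GRCh38, 29.4% of the 50-base windows of *ULBP2* recur in *RAET1L* and 11.6% in *RAET1G*, the highest such shares among the 10 ligands. For *LGALS9* 6.95% of windows recur in *LGALS9C* and 3.62% in *LGALS9B*, which had at most 2 and 4 reads in any library. *MICA* shares 1.89% of its windows with *MICB*, *MICB* 1.61% with *MICA*, and *ULBP3* 6.5% with *ULBP1*. Exons of *PVR* overlap those of *CEACAM19* on the same strand, and *CEACAM19* had 77 to 141 reads a library. Exons of *MICA* overlap those of *HCP5*, and exons of *LGALS9* those of an uncharacterised locus, both on the same strand and not used here.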

How the data were processed

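The authors sequenced oligo(dT)-selected mRNA on a HiSeq2000 and deposited 1 table of FPKM values for 6 SW480 libraries. Aligner, annotation and statistical model are not given in the sources used here. Columns were read by their letters as control (G) and *MDM4* (M) and by their digits as replicate numbers. The ligands and gene lists were chosen with earlier results of these data known.

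FPKM values were whole multiples of 1 read over a whole gene length for 100% of the 17189 symbols above 0 (length tolerance 0.002 bases), which gave reads and library totals, with 99.6% of reads on listed genes. log2(FPKM + 0.1) was fitted with limma 3.58.1 (trend) in R 4.3.3 for the 12884 genes averaging 0.5 FPKM or more, with no block. A gene was called when its Benjamini-Hochberg adjusted p was below 0.05 and its log2 fold change exceeded 1 in size. For the replicate 3 term only the adjusted p was used. Both steps were tested on simulated data. The simulation for limma held no replicate effect, so it does not show how the fit performs with libraries like those of replicate 3. Exact permutation tests and binomial (Clopper-Pearson) intervals used scipy 1.17.1. Named were the 10 ligands, *MDM4*, up to 4 genes of each list with the smallest p and its most abundant, and the most correlated genes. Genes of the lists named for low reads, *EPCAM* and *CDH1* among the epithelial markers, *IFI27* and *ISG15* among the interferon genes, and the overlapping genes were in part chosen after their values were seen.

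Deviations from the group means correlated between same-numbered libraries at 0.458, 0.451 and 0.783. Replicates 1 and 2 also correlated across numbers at 0.462 and 0.439, so these values match only the replicate 3 libraries to each other. That the numbers also pair the libraries of replicates 1 and 2 was assumed. Alternatives were the replicate block, replicates 1 and 2 alone, TPM and median ratio scaling, quantile normalization, limma without trend, pseudocounts of 0.5 and 1, a filter of 1 FPKM or none, limma-voom on the reads, and leaving out each library. Sequences are from RefSeq; 10 of 10 symbols had a promoter entry. One gene that the naming rule covers is not reported here.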

Additional observations from a re-analysis of the deposited data

Results flagged for a closer look

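The increase of *MDM4* itself was smaller in replicate 3. By replicate number *MDM4* exceeded control 29.7-fold, 26.1-fold and, in the third pair, 10.96-fold, a difference of -1.35 on the log2 scale between replicate 3 and replicates 1 and 2 (limma interaction, adjusted p 0.00166). Replicate 3 has 1 library a group, so the error of this test comes from replicates 1 and 2 alone, and replicate 3 is assumed to vary as they do. Replicate 3 is also the pair in which the *LGALS9* and interferon gene differences were near 0, and whether these are related was not tested.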

How the results depend on the processing

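The numbers of genes called changed with the treatment of replicate 3. Without a block 0 genes were called, and 2 with the replicate block, 15 with limma-voom and the block, 37 with replicates 1 and 2 only and 0 to 16 when 1 library was left out (16 without control replicate 3, 1 without *MDM4* replicate 3). The ligands called were 0 in each of these except replicates 1 and 2 only, where 1, *LGALS9*, was called. *LGALS9* stayed lower under all 18 alternatives, by -1.59 to -0.71 on the log2 scale, with adjusted p from 0.00194 to 1 and -1.36 to -0.88 when 1 library was left out. *MDM4* had a log2 fold change of 4.33 and passed the threshold with the replicate block (4.33), limma-voom and the block (4.44) and replicates 1 and 2 only (4.78), with 4.03 to 4.91 when 1 library was left out, where it passed without control or *MDM4* replicate 3. The block changed no call among the ligands. The genes called for the replicate 3 term were 5685, with 2414 (without *MDM4* replicate 3) to 6436 when 1 library was left out, and the ligands called were 6, with 5 to 7; without *MDM4* replicate 3 they included *LGALS9* and neither *MICA* nor *CD276*. The cause of these shifts was not tested.

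Of 180 alternatives for the ligands' fold changes, 163 kept direction and side of the threshold and 16 changed sign, all in ligands that were not called. *CD276* turned to 0.0193 with TPM scaling and 0.0065 with quantile normalization, and *ULBP1* to -0.11 with replicates 1 and 2 only. With 1 library left out, the log2 fold changes ran from -0.0867 to 0.0638 for *CD276*, from -0.17 to 0.34 for *PVR*, from -0.22 to 0.0671 for *MICA*, from -0.31 to 0.031 for *MICB*, from -0.35 to 0.35 for *ULBP1*, from -0.0441 to 0.36 for *ULBP2*, and, without a change of sign, from -0.31 to -0.0782 for *CD274*, from 0.0182 to 0.14 for *CD47* and from 0.00865 to 0.21 for *ULBP3*. The 45 to 216 reads of *LGALS9* and 69 to 135 of *CD274* limit what could be detected.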
